A study of Mus musculus with 2 samples.

Results

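Among sorted dopaminergic neuron nuclei of the adult mouse ventral midbrain, 169 of 12065 nuclei carried transcripts of both Calb1 and Aldh1a1 and none of Sox6, Anxa1 and Otx2. They were chosen on raw counts of unique molecular identifiers (UMIs, each of which tags a captured transcript): nuclei with at least 500 detected features were kept, and a member had at least 1 UMI of Calb1, at least 1 UMI of Aldh1a1 and 0 UMIs of the other 3 genes. There were 99 members among 6556 male nuclei and 70 among 5509 female nuclei. The levels of these 5 genes therefore follow from the choice and are given only as a description. Every other gene was compared with nuclei of the same library that also had 0 UMIs of Sox6. These had Calb1 without Aldh1a1 (Calb1-only) or Aldh1a1 without Calb1 (Aldh1a1-only). A count of 0 does not show that a nucleus lacks the transcript. The comparison nuclei, unlike the members, could carry Anxa1 or Otx2.

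All nuclei came from adult mice of the DAT-IRES-Cre, CAG-Sun1/sfGFP cross. In these mice Cre is expressed from the dopamine transporter locus and turns on Sun1 fused to GFP in the nuclear envelope, so any cell that has ever expressed the transporter can be sorted as GFP+. Nuclei of 2 male mice were pooled into 1 library and nuclei of 3 female mice into the other, with no treatment, which gives the single condition 2 replicates (n = 2). Sex and library cannot be told apart, and the mice within a pool cannot be separated.

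Midbrain dopamine neurons make dopamine from tyrosine and differ in their position, targets and molecular markers. Calb1 encodes calbindin, a protein that buffers intracellular calcium and marks many neurons of the dorsal substantia nigra and the ventral tegmental area. Aldh1a1 encodes an aldehyde dehydrogenase that oxidizes retinaldehyde and the aldehyde product of dopamine breakdown, and marks ventral nigral neurons and a part of the ventral tegmental area. Sox6 is a transcription factor gene of ventral nigral neurons, Anxa1 marks a subset of Aldh1a1 neurons, and Otx2 is a transcription factor gene of the ventral tegmental area. In mm10 Calb1 (ENSMUSG00000028222) spans 15881264 to 15908064 of chromosome 4 and Aldh1a1 (ENSMUSG00000053279) spans 20492715 to 20643465 of chromosome 19, both on the plus strand.

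The members were deeper than average. Male members had a median depth of 3142 UMIs and female members one of 3221.5, against 2730.5 and 3016 over all kept nuclei of these libraries. For each member the 2 unused nuclei of each comparison class with the nearest UMI total in the same library were therefore taken. This gave 198 male and 140 female nuclei per class, with median depths of 3139 and 3221 UMIs for Calb1-only and of 3142.5 and 3220 UMIs for Aldh1a1-only. Pooled, male members held 390440 UMIs and female members 270214. No barcode was shared between the members of the 2 libraries, 6 barcodes were shared between all their kept nuclei, and 1 male member had the barcode of a kept female nucleus.

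Most members rested on few UMIs of the genes that chose them. Calb1 was present as a single UMI in 85 of 99 male and 57 of 70 female members, and its highest count was 3 in either library. Aldh1a1 was present as a single UMI in 58 male and 40 female members, but 29 and 19 members had 3 or more, with highest counts of 10 and 7. In all, 85 of 169 members (50.3%, exact 95% binomial interval 42.5 to 58.1%) had 1 UMI of each gene, and 14 (8.28%, 4.60 to 13.5%) had at least 2 of each. These intervals, like all intervals of shares given here, cover counting error only.

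The choice removed more nuclei through Sox6 than through the other genes. Of 411 kept nuclei with both Calb1 and Aldh1a1, 225 (54.7%, 49.8 to 59.6%) had Sox6, and of the 186 without it 9 had Anxa1 and 9 had Otx2, 1 of them both. Just outside the choice were 63 nuclei with a single Sox6 UMI and neither Anxa1 nor Otx2, and 126 more had 2 or more Sox6 UMIs and neither of these genes.

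A single UMI can also come from RNA free in the suspension, so the shares were set beside clusters low in the gene. Calb1 had at least 1 UMI in 23 of 658 male (3.50%, 2.23 to 5.20%) and 31 of 610 female nuclei (5.08%, 3.48 to 7.14%) of the large cluster with the least Calb1, at median depths of 3010.5 and 3516.5 UMIs. Among Sox6-negative nuclei with Aldh1a1, Calb1 was present in 15.8% of the male and 13.1% of the female nuclei. Aldh1a1 had at least 1 UMI in 20 of 509 male (3.93%, 2.416 to 6.003%) and 28 of 415 female nuclei (6.75%, 4.53 to 9.60%) of the large cluster lowest in that gene, at median depths of 2260 and 2536 UMIs. How many of the members took a UMI from free RNA was not tested.

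Nuclei with both genes were also counted beside the product of the shares of the genes, as a description of the values that chose the members. Within 10 bins of UMI total, 109 male Sox6-negative nuclei had both genes where the product gave 135.0, a ratio of 0.81. For female nuclei 77 had both where the product gave 116.7, a ratio of 0.66. Without depth bins the ratios were 0.86 and 0.69. Within rebuilt clusters of at least 100 such nuclei, summed with 3 depth bins each, 104 male nuclei had both against 109.3 (0.95) and 71 female nuclei against 96.2 (0.74).

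**Figure D1:**
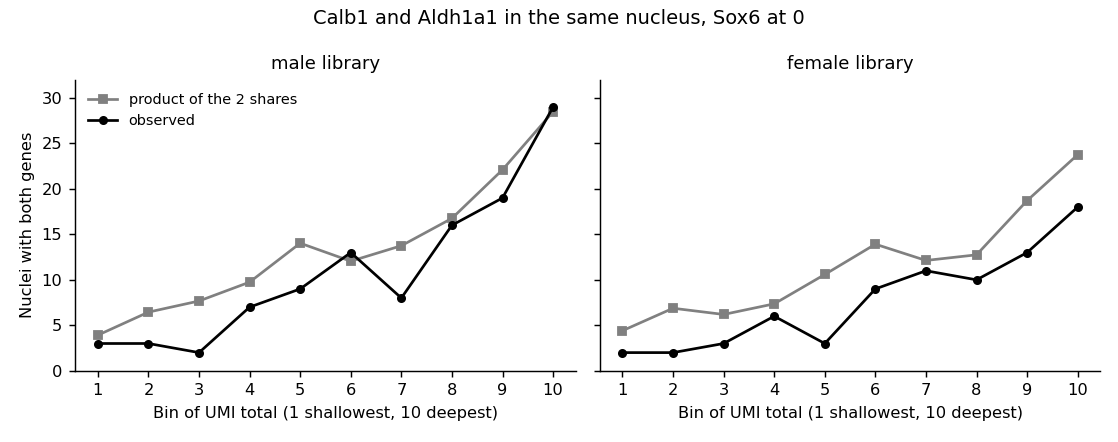
Number of Sox6-negative nuclei with both Calb1 and Aldh1a1 (y axis) in 10 bins of UMI total from the shallowest to the deepest (x axis), in the male (left) and female (right) library; black points are observed, grey squares the product of the shares of the 2 genes in the bin. In the deepest male bin 29 nuclei were observed against a product of 28.5, and in the deepest female bin 18 against 23.8.

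The members carried the transcripts of dopamine neurons. Th, the rate-limiting enzyme of dopamine synthesis, was at 348 and 455 CPM (UMI counts per 1000000 UMIs of the sum) in the male and female members, against 365 and 475 CPM in Calb1-only and 364 and 475 CPM in Aldh1a1-only nuclei. Slc6a3, the dopamine transporter, was at 405 and 596 CPM in the members, 435 and 590 CPM in Calb1-only and 503 and 626 CPM in Aldh1a1-only nuclei. Slc18a2, the vesicular monoamine transporter, was at 484 and 914 CPM in the members, and Ddc, which makes dopamine from its precursor, at 848 and 799 CPM. The libraries differed more in Th and Slc18a2 than the classes did within a library. None of the 4 genes passed the test against either class, with log2 fold changes between -0.24 and -0.04 and adjusted p values of 0.35 or more.

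Several defining markers of other cell types were at or near 0 in the members, with Slc1a2 and Vcan as exceptions. Slc17a6, the vesicular glutamate transporter of a subset of dopamine neurons, had 3 UMIs over male and 1 over female members (7.68 and 3.70 CPM), and was too low to be tested, Slc17a7 had 1 UMI and Slc17a8 was at 0. Of the 3 GABAergic markers Gad2 was the most abundant, at 17.9 and 18.5 CPM, Slc32a1 was at 0 and Gad1 had 1 UMI. Of 4 astrocyte markers Slc1a2 was at 233 and 374 CPM in the members, 214 and 204 CPM in Calb1-only and 256 and 254.5 CPM in Aldh1a1-only nuclei, while Aqp4 and Gja1 were at 0 and Slc1a3 had 2 UMIs, all male. The 3 endothelial and 3 serotonergic markers summed to 1 and 0 UMIs. The 4 microglial markers summed to 8 UMIs, with Csf1r and C1qa at 0. Of the 3 markers of oligodendrocyte precursors, Pdgfra was at 0 and Cspg4 had 1 UMI, while Vcan was at 12.8 and 40.7 CPM.

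Oligodendrocyte transcripts were present at low levels, lowest in Aldh1a1-only nuclei of either library. The 5 markers together were at 149 and 44.4 CPM in male and female members, at 144 and 97.4 CPM in Calb1-only and at 79.3 and 32.5 CPM in Aldh1a1-only nuclei. Among them Mbp was at 53.8 and 18.5 CPM in the members, while Mobp and Mog were at 0. Without nuclei that had 2 or more UMIs of these markers, 109 of the 122 genes called against Calb1-only nuclei and 27 of the 29 called against Aldh1a1-only nuclei (see the comparisons that follow) were called again, and their part in the results was not tested further. The highest 6% of doublet scores held 13 of 99 male members (13.1%, 7.18 to 21.4%) and 6 of 70 female members (8.57%, 3.21 to 17.7%), against 5.56% and 7.86% of Calb1-only and 6.57% and 7.14% of Aldh1a1-only nuclei. Without these nuclei 92 of the 122 genes and 12 of the 29 genes were called again. The part of doublets in the results was not tested further.

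UMIs were summed per class and library, and the 6 sums were compared by the quasi-likelihood test of edgeR, blocked by library, over 7480 genes besides the genes of the choice. Against Calb1-only nuclei, 60 genes were higher (0.802% of those tested) and 62 lower (0.829%) in the members at an adjusted p under 0.05. Among them were the adhesion genes Lrrtm4 and Cdh8 and the transcription factor gene Ebf1, which were higher, and the developmental dopaminergic factor Lmx1a and the netrin receptor gene Unc5d, which were lower. DESeq2, which gave an adjusted p to 1968 genes and to all but 26 of these 122, called 27 of the 122 and no others, 18 higher and 9 lower. Without the library block edgeR called 22 of them and no others, 15 higher and 7 lower, and 14 genes were called in all 3 fits.

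Lrrtm4, which encodes a leucine-rich synaptic adhesion protein, was at 1524 and 1166 CPM in male and female members, against 738 and 624 CPM in Calb1-only and 1603 and 1781 CPM in Aldh1a1-only nuclei. The members stood clear of the Calb1-only sums in both libraries, by 0.98 on the log2 scale (SE 0.10, adjusted p = 1.4e-09). Cdh8, a cadherin, was at 1153 and 1354 CPM in the members, 677 and 764 CPM in Calb1-only and 1427 and 1431 CPM in Aldh1a1-only nuclei. Its log2 fold change over Calb1-only was 0.79 (SE 0.09, adjusted p = 5.4e-08). Both genes were called in all 3 fits.

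Transcription factor genes were called in both directions against Calb1-only nuclei. Ebf1 was at 179 and 289 CPM in the members, above Calb1-only (72.1 and 111 CPM) and also above Aldh1a1-only nuclei of the same library (141 and 161 CPM). Over Calb1-only nuclei it was higher by 1.34 (SE 0.19, adjusted p = 4.0e-06), and against Aldh1a1-only nuclei Ebf1 was not called. Lmo3, a LIM-only cofactor, was at 233 and 207 CPM in the members and 107 and 74.4 CPM in Calb1-only nuclei (log2 fold change 1.25, SE 0.18). Satb1, a chromatin organizer, was higher by 0.57 (SE 0.16). Lmx1a was at 66.6 and 51.8 CPM in the members against 130 and 164 CPM in Calb1-only nuclei, and fell by 1.25 on the log2 scale (SE 0.24, adjusted p = 6.4e-04). Aldh1a1-only nuclei had Lmo3 at 335 and 281 CPM and Lmx1a at 24.6 and 45.9 CPM. They had Satb1 at 310.5 and 352 CPM, against 246 and 289 CPM in the members. Members with 1 Aldh1a1 UMI had Lmx1a at 90.5 and 83.8 CPM, and those with 2 or more at 44.4 and 8.69 CPM (9 and 1 UMIs). Ebf2 had 6 UMIs over male and 0 over female members against 33 and 25 in Calb1-only nuclei. Of 24 listed factors 21 were tested, and these 5 were called against Calb1-only nuclei, 3 higher and 2 lower. Of all tested genes 0.802% were higher and 0.829% lower. DESeq2 and the fit without the library block called 2 of the 5 factors, Ebf1 and Lmo3. Satb1, Lmx1a and Ebf2 were not called without the block, and DESeq2 did not call Satb1 and gave the other two no adjusted p. The median log2 fold change of the 21 was -0.02, beside 0.01 over all genes. Nr4a2, En1, Pitx3 and Lmx1b, which maintain dopaminergic identity, did not pass the test in either comparison.

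Adhesion and axon guidance genes were the longest list, with 57 genes. Of 54 tested, 8 were higher and 6 lower than in Calb1-only nuclei, where 0.802% and 0.829% of all tested genes were. Besides Lrrtm4 and Cdh8, those higher were the teneurin genes Tenm3 and Tenm2, the cadherin genes Cdh11 and Cdh13, the protocadherin gene Pcdh15 and the ephrin receptor gene Epha5, with log2 fold changes from 0.35 to 0.78. Those lower were Unc5d, the protocadherin genes Pcdh11x, Pcdh7 and Pcdh9, Epha6 and Sema6d, with log2 fold changes from -1.44 to -0.33. Unc5d was at 184 and 185 CPM in the members, 376 and 334 CPM in Calb1-only and 99.8 and 124 CPM in Aldh1a1-only nuclei, and fell by 0.96 (SE 0.15, adjusted p = 3.4e-05) relative to Calb1-only. The median of the 54 genes was 0.17. DESeq2 called 7 of the 14, Lrrtm4, Cdh8, Cdh11, Tenm2, Pcdh15, Unc5d and Pcdh9, and the fit without the block called 3, Lrrtm4, Cdh8 and Unc5d.

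Some genes of the fixed lists of calcium-binding, channel and receptor genes were called against Calb1-only nuclei. Over all tested genes 0.802% were higher and 0.829% lower. Necab1, a neuronal calcium-binding protein, was at 169 and 133 CPM in the members against 261 and 260 CPM in Calb1-only nuclei (log2 fold change -0.76, SE 0.17). Kcnip4, a calcium-binding subunit of Kv4 potassium channels, was at 6334 and 7031 CPM against 7560 and 9582 CPM (-0.36, SE 0.07). Both were lower, and none of the 17 tested calcium-binding genes was higher. Within cluster 2, described with the clusters, Kcnip4 was at 0.255 and not called. Of 30 channel genes only Kcnq5, which carries an M-type potassium current, passed against Calb1-only nuclei (0.57, SE 0.14). Hcrtr2, the type 2 orexin receptor, was at 66.6 and 62.9 CPM in the members against 24.96 and 15.3 CPM, a log2 fold change of 1.62 (SE 0.35), and was the 1 call among 8 tested neuropeptide and receptor genes. Without the library block none of these 4 genes was called. DESeq2 did not call Necab1, Kcnip4 or Kcnq5 and gave Hcrtr2 no adjusted p.

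The largest fold changes against Calb1-only nuclei belonged to genes of low level. Piezo2, a mechanosensitive channel, had 11 and 15 UMIs in the members against 3 and 0 in Calb1-only nuclei. Over both libraries that is 16.3-fold (exact counting interval 5.01 to 84.3) higher relative to the UMI totals. Lamb1, a laminin chain, had 2 and 1 UMIs in the members against 35 and 25, or 10.6-fold (3.46 to 52.9) lower. The transcriptional coactivator gene Eya1 (46.1 and 40.7 CPM against 6.93 and 11.5 CPM) was higher by 2.28 on the log2 scale (SE 0.46). Scnm1, P3h2, Tmem132c, Stac, Cfap61 and Shroom3 were also higher, with log2 fold changes from 1.36 to 2.02. Fgf10, a secreted growth factor, was lower, with 4 and 0 UMIs against 24 and 24. Coq2, Sytl5, Ccdc112, Slc44a5 and Fras1 were lower as well, with log2 fold changes from -2.13 to -1.30. DESeq2 gave none of the genes of this paragraph an adjusted p. Without the library block Piezo2, Lamb1, Eya1 and Tmem132c were called and the rest were not. None of the genes of this paragraph was called against Aldh1a1-only nuclei. There Piezo2 was at 35.6 and 36.35 CPM, against 28.2 and 55.5 CPM in the members. Eya1 was at 57.4 and 67.0 CPM and Lamb1 at 24.6 and 21.05 CPM in Aldh1a1-only nuclei.

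The members differed less from Aldh1a1-only nuclei by count of calls. Here 19 genes were higher (0.254% of those tested) and 10 lower (0.134%). Among those higher were protocadherin genes and a kainate receptor gene, and among those lower a collagen, adhesion genes of the immunoglobulin superfamily and a potassium channel gene. DESeq2 called 4 of these 29 genes, Pcdh9, Cadm2, Col25a1 and Pex5l, and no others. Without the library block edgeR called 0, with 268 genes at an unadjusted p under 0.05. Anxa1, absent from the members by choice, was at 35.6 and 32.5 CPM in Aldh1a1-only nuclei. With Anxa1 and Otx2 at 0 in the comparison classes edgeR called 27 genes, 21 of which were among the 29. Whether the members lay closer to 1 class than to the other was not tested gene by gene.

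Pcdh9, a protocadherin, was at 1862 and 1991 CPM in the members, 1303 and 1186 CPM in Aldh1a1-only and 2611 and 2634 CPM in Calb1-only nuclei. It rose over Aldh1a1-only by 0.61 (SE 0.08, adjusted p = 1.9e-06), and the sums of the 3 classes did not overlap. Members within cluster 2, described with the clusters, had Pcdh9 at 945 and 1013 CPM, and those outside had it at 2430 and 2688 CPM. Within that cluster Pcdh9 was not called against Aldh1a1-only nuclei. Pcdh7 showed the same order at 812 and 677 CPM in the members, 465 and 530 CPM in Aldh1a1-only and 989 and 1141 CPM in Calb1-only nuclei (0.60, SE 0.11). Col25a1, a transmembrane collagen, was at 399.5 and 544 CPM in the members, 890 and 802 CPM in Aldh1a1-only and 434 and 529 CPM in Calb1-only nuclei, and fell by 0.89 (SE 0.12, adjusted p = 1.9e-06) relative to Aldh1a1-only. Pex5l, which binds HCN channels and sets their trafficking, was at 556 and 566 CPM in the members, 934 and 901 CPM in Aldh1a1-only and 538 and 580 CPM in Calb1-only nuclei (-0.72, SE 0.10). For Col25a1 and Pex5l the members overlapped the Calb1-only sums. Both were lower in members within cluster 2 than in those outside (values in the account of cluster 2). Neither was called within that cluster.

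**Figure D2:**
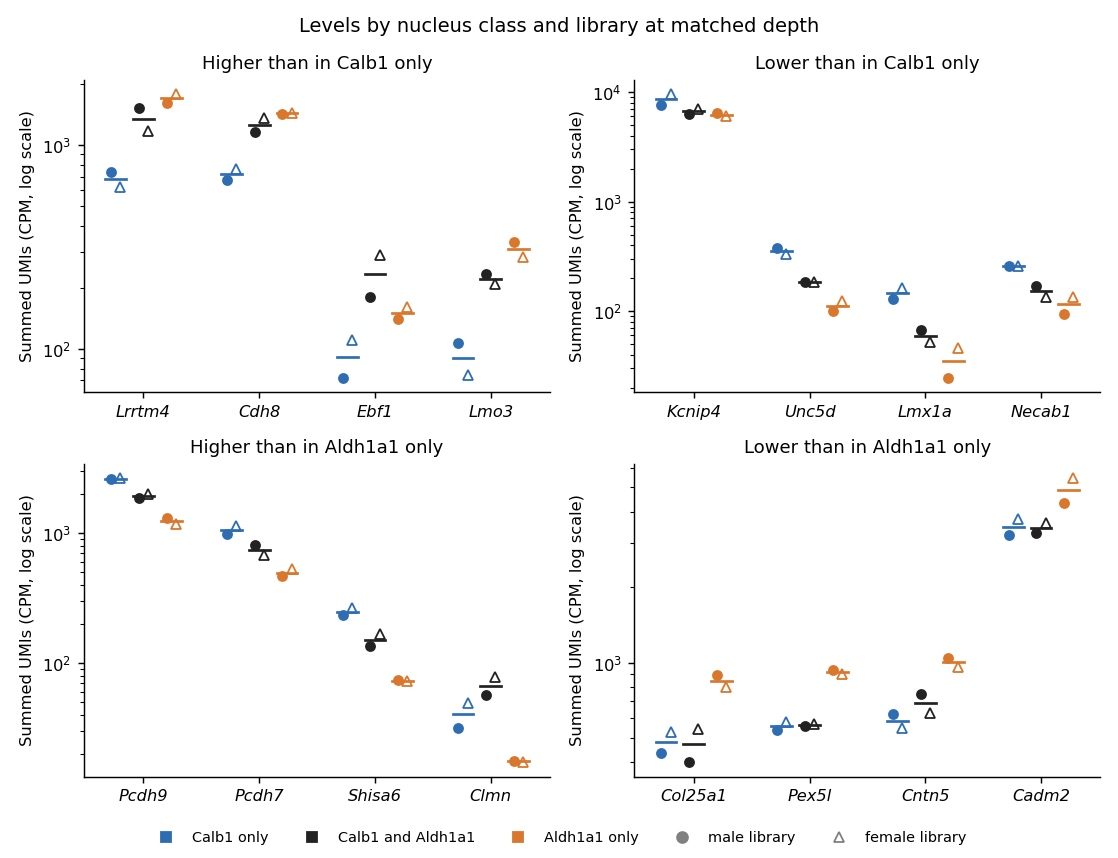
Summed UMIs in CPM on a log axis for 16 genes called in the comparison named above each panel, in Calb1-only (blue), Calb1 and Aldh1a1 (black) and Aldh1a1-only (orange) nuclei; filled circles are the male and open triangles the female library, and bars are the mean of both. Over all members Ebf1 and Clmn lie highest, and Pcdh9, Pcdh7, Shisa6, Lmx1a and Unc5d lie between the other classes. Pcdh9, Shisa6 and Lmx1a differed between parts of the members, as given in the text.

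From the fixed lists of channels and receptors, Grik2, a kainate receptor subunit, was higher by 0.50 (SE 0.12). Kcnd2, the pore of Kv4.2 channels, was higher by 0.42 (SE 0.10). Kcnj6, which encodes the GIRK2 channel of dopamine neurons, was at 653 and 625 CPM in the members against 897 and 867 CPM in Aldh1a1-only nuclei, and fell by 0.47 (SE 0.10, adjusted p = 8.9e-03). Its level in Calb1-only nuclei was 654 and 678 CPM, close to the members. Kcnj6 was also lower in members within cluster 2 than in those outside, and was not called within that cluster.

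Among the remaining named genes higher than in Aldh1a1-only nuclei were Clmn, Dgkg (a diacylglycerol kinase), Mid1 (a ubiquitin ligase), Shisa6 (an auxiliary protein of AMPA receptors), Dock10, Ankfn1, the noncoding Sox2ot, Dpyd (an enzyme of pyrimidine breakdown) and Plpp4, with log2 fold changes from 0.72 to 1.87. Clmn was at 56.4 and 77.7 CPM in the members, 17.8 and 17.2 CPM in Aldh1a1-only and 31.9 and 49.6 CPM in Calb1-only nuclei. Shisa6 was at 229 and 206 CPM in members with 1 Aldh1a1 UMI but at 49.4 and 113 CPM in those with 2 or more. In Aldh1a1-only nuclei Shisa6 was at 73.9 and 72.7 CPM. Those lower were Cadm2, Cntn5 and Ntm (adhesion proteins of the immunoglobulin superfamily), Lix1, the cadherin gene Cdh20, the heparan sulfate enzyme gene Hs6st3 and the RNA-binding protein gene Rbms3, with log2 fold changes from -0.79 to -0.31. Within cluster 2 Lix1 was at 0.216 and not called. Of the 54 adhesion genes 2 were higher (Pcdh7 and Pcdh9) and 2 lower (Cdh20 and Cntn5), with a median of 0.08 against 0.00 over all genes.

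A further contrast set the members against the midpoint of both classes on the log2 scale, and found 15 genes higher (0.201%) and 5 lower (0.0668%). Ebf1 was among them, above the midpoint by 0.96 (SE 0.16, adjusted p = 7.5e-04), and so was Thsd7b, at 348 and 400 CPM in the members against 183 and 153 CPM in Calb1-only and 237 and 306 CPM in Aldh1a1-only nuclei (0.79, SE 0.13). Kcnab1, an auxiliary subunit of potassium channels, was at 451 and 452 CPM in the members, 284 and 256 CPM in Calb1-only and 331 and 287 CPM in Aldh1a1-only nuclei (0.62, SE 0.11). Plpp4 (0.81, SE 0.16), the secreted protein gene Tafa1 (0.70, SE 0.14), the teneurin gene Tenm3 (0.50, SE 0.12), the zinc finger gene Zfp385b (0.84, SE 0.19), Clmn, Piezo2 and the transcripts 9530026P05Rik and C130073E24Rik were also higher. Lamb1, Slc44a5, Ptprz1 (a receptor phosphatase), Col25a1 and Cadm2 were lower. A call against the midpoint does not place the members outside both classes. Piezo2 was at 28.2 CPM in male members, below Aldh1a1-only nuclei (35.6 CPM). Tafa1 was at 303.5 CPM in female members, also below Aldh1a1-only nuclei (363.5 CPM). Cadm2 was at 3283 and 3605 CPM in the members, near Calb1-only nuclei (3232 and 3741 CPM). Slc44a5, a choline transporter-like gene, was at 66.6 and 29.6 CPM in the members, 141 and 118 CPM in Calb1-only and 87.5 and 88.0 CPM in Aldh1a1-only nuclei. Thsd7b, Plpp4 and Kcnab1 were higher in the members of 1 cluster than in the other members (values in the account of cluster 2), and none of the 20 genes was called against the midpoint within that cluster. DESeq2 and the fit without the block called none of the 20 either: DESeq2 called 0 genes (74 at an unadjusted p under 0.05) and edgeR without the block called 0 (250).

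Several lists held no call against either class. Of 15 genes of dopamine synthesis, storage, reuptake and breakdown, 10 were tested and 0 called by edgeR or DESeq2 in any of the 3 contrasts, with medians of -0.07 against Calb1-only, -0.21 against Aldh1a1-only and -0.10 against the midpoint (2, 1 and 2 genes at an unadjusted p under 0.05). Of 22 retinoid pathway genes around Aldh1a1, 6 were tested and 0 called by either tool, with medians of 0.36, 0.23 and 0.24 in the same order (3, 0 and 3 at an unadjusted p under 0.05). Aldh1a7, the closest relative of Aldh1a1, had 3 UMIs over male and 1 over female members and was not tested. Of 18 genes linked to ventral tegmental area neurons, 6 were tested and 0 called by either tool, with medians of 0.22, 0.32 and 0.33 (1, 1 and 0 at an unadjusted p under 0.05). Calb2 was at 35.9 and 14.8 CPM and Lpl at 23.1 and 44.4 CPM in the members. Of 12 immediate early genes 2 were tested and 0 called by either tool, with medians of 0.09, 0.13 and 0.11 (0 at an unadjusted p under 0.05 in each). Of 16 genes linked to Sox6 nigral neurons 15 were tested; Lmo3 and Satb1 were higher than in Calb1-only and Kcnj6 was lower than in Aldh1a1-only nuclei. The median of these 15 genes was 0.01 against Calb1-only and -0.43 against Aldh1a1-only nuclei, beside 0.01 and 0.00 over all genes. Kcns3, a potassium channel gene of that list, was at 53.8 and 59.2 CPM in the members, 43.0 and 53.5 CPM in Calb1-only and 97.1 and 132 CPM in Aldh1a1-only nuclei, which did not pass the test (adjusted p = 0.056).

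The size of some changes rested on 1 library. Of the 77 called values of named genes reported here, 22 moved by over 1.5 times when a library was left out, with the direction kept, which the choice of most of these genes required. The widest was Ankfn1 against Aldh1a1-only nuclei, at 1.45 on the log2(CPM + 1) scale in the male library alone and 0.22 in the female library alone. Pcdh7 against Calb1-only nuclei was at -0.28 in male and -0.75 in female nuclei. Against Aldh1a1-only nuclei Pcdh7 was at 0.80 and 0.35, Col25a1 at -1.15 and -0.56 and Plpp4 at 0.39 and 1.14. The others were Ccdc112, Cdh11, Cfap61, Ebf2, Fgf10, Fras1, Pcdh11x, Piezo2, Sema6d, Stac and Sytl5 against Calb1-only, Hs6st3 against Aldh1a1-only, and Col25a1, Piezo2, Plpp4, Slc44a5 and Tafa1 against the midpoint. Each of these had the same sign in either library.

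To place single nuclei, genes that distinguish the single-gene classes were called in nuclei that depth matching had left unused, so that neither the members nor their matched nuclei chose them. Over 8904 genes, 211 were higher in Aldh1a1-only (2.37%) and 283 in Calb1-only nuclei (3.18%). In the matched nuclei themselves 114 genes were higher (1.52%) and 123 lower (1.64%) in Aldh1a1-only than in Calb1-only nuclei. Of the 211 genes of the Aldh1a1 side, 199 could be tested in the matched nuclei, and the members were above Calb1-only nuclei in 169 and below Aldh1a1-only nuclei in 142. They lay between both classes in 112 of the 199, above both in 59 and below both in 28. Of the 283 genes of the Calb1 side, 267 could be tested, and the members were below Calb1-only nuclei in 232 and above Aldh1a1-only nuclei in 200. They lay between both in 166 of the 267, above both in 35 and below both in 66.

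For each nucleus the UMIs of the Aldh1a1 side were then taken as a share of the UMIs of both sides. Male members had a median share of 56.4% and female members one of 56.8%, against 47.7% and 45.7% in Calb1-only and 62.2% and 60.4% in Aldh1a1-only nuclei. In both libraries the members lay between the other classes. Over all members the median was nearer to that of Aldh1a1-only nuclei. It was nearer to that of Calb1-only nuclei over male members with 1 Aldh1a1 UMI or outside cluster 2. The same held over the 13 female members with 2 or more Calb1 UMIs (values in the paragraphs on these subsets). The spread of the members, an SD of 8.82 percentage points over the 99 male and 8.99 over the 70 female members, was close to that of the other classes (8.08 and 8.41 for Calb1-only, 9.09 and 9.72 for Aldh1a1-only), and all 3 distributions overlapped widely. The shares of single members ran from 29.0 to 73.0% in the male and from 35.1 to 70.2% in the female library.

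**Figure D3:**
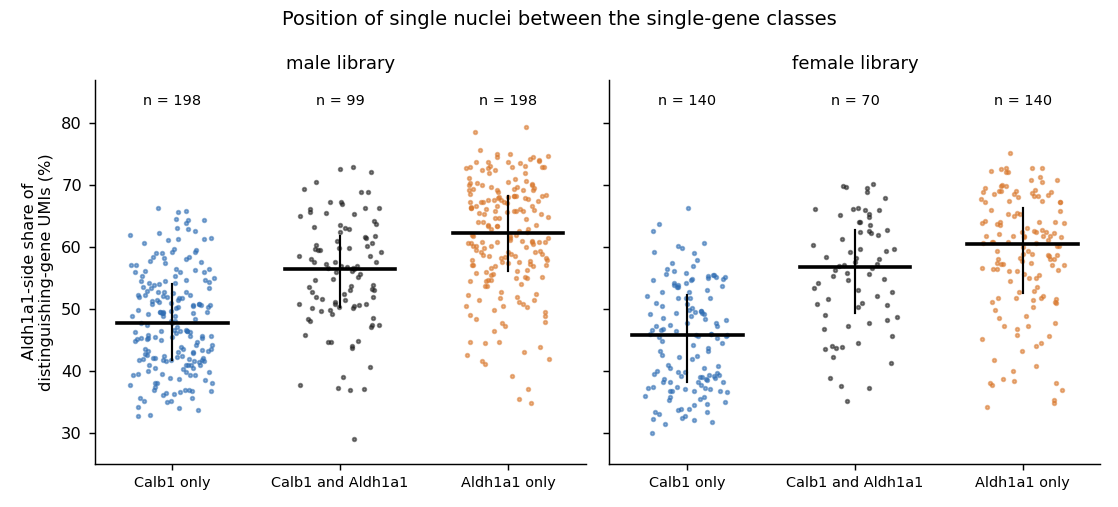
Share of the UMIs of 211 Aldh1a1-side and 283 Calb1-side genes that belonged to the Aldh1a1 side (y axis, %), for each nucleus of the 3 classes at matched depth (x axis); points are nuclei, thick bars medians and thin lines the quartiles. The members' medians of 56.4% (male) and 56.8% (female) lie between those of the Calb1-only and Aldh1a1-only nuclei.

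Members with more Aldh1a1 lay nearer to the Aldh1a1 side, and were also deeper. Those with 1 Aldh1a1 UMI had a median share of 53.3% in the male (n = 58) and 54.4% in the female library (n = 40), and those with 2 or more had 59.8% (n = 41) and 58.3% (n = 30). The median depths were 2908.5 and 3183 UMIs for the first and 3968 and 3353 UMIs for the second, whose part in the difference was not tested. By Calb1 the median was lower with more UMIs in either library, by different amounts. Members with 1 and with 2 or more Calb1 UMIs had medians of 56.4% and 55.7% among male but 57.7% and 49.0% among female nuclei, with 14 and 13 nuclei in the second group. The nuclei just outside the choice, with 1 Sox6 UMI, had medians of 59.3% (n = 32) and 57.1% (n = 31). Without the highest doublet scores the members' medians were 56.6% and 57.0%. These are descriptions of nuclei that share a library, and no test was made.

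The members concentrated in 1 of 16 clusters rebuilt without the 5 genes of the choice. Cluster 2, of 1566 nuclei, held 45 of 99 male members (45.5%, exact 95% binomial interval 35.4 to 55.8%) and 35 of 70 female members (50%, 37.8 to 62.2%). It held 15.7% and 12.9% of Calb1-only nuclei, 33.3% and 40.7% of Aldh1a1-only nuclei, and 13.0% of all kept nuclei of either library. The intervals of the members lay above those of the Calb1-only nuclei and overlapped those of the Aldh1a1-only nuclei. Cluster 7 held 11.1% and 11.4% of the members and cluster 1 held 13.1% and 8.57%. The rest were spread over 11 of the other clusters, and clusters 14 and 15 held 0 of 169 members, which allows a share of up to 1.78% each.

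**Figure D4:**
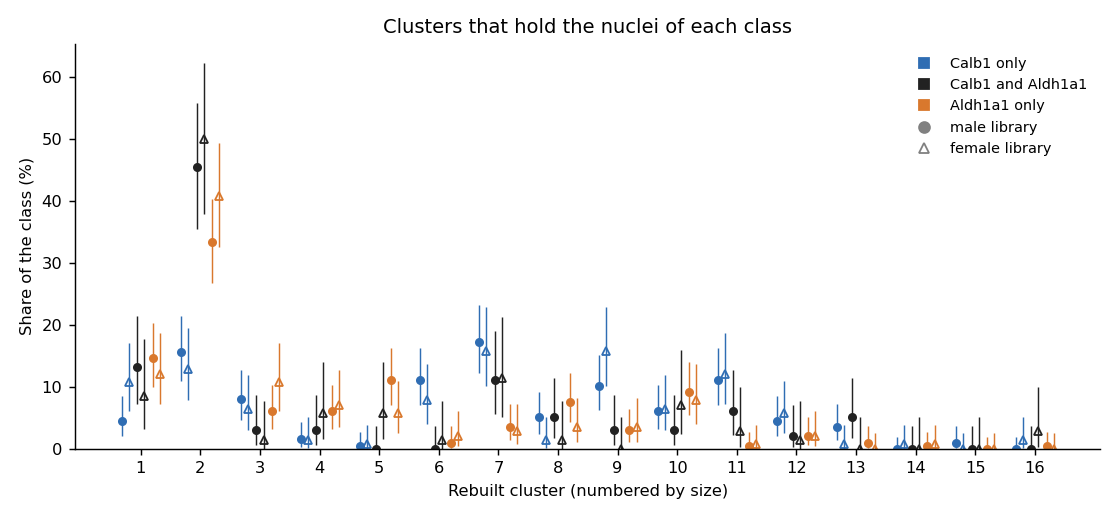
Share of each class (y axis, %) in the 16 rebuilt clusters (x axis, numbered by size) for Calb1-only (blue), Calb1 and Aldh1a1 (black) and Aldh1a1-only (orange) nuclei; filled circles are the male and open triangles the female library, and lines are exact 95% binomial intervals. Cluster 2 holds 45.5% of the male and 50% of the female members, more than any other cluster.

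Cluster 2 was led by Piezo2, Eya1, Csf2rb2, Plpp4, Tmem132d and Tacr3, the neurokinin 3 receptor gene. Lpl (47.2 and 48.9 CPM) and Neurod6 (21.1 and 21.2 CPM) came next. Both are on the list of genes linked to ventral tegmental area neurons, and Tacr3 is on the list linked to Sox6 nigral neurons. Cluster 2 is called by its number here. Its nuclei had Aldh1a1 at 323 and 404 CPM, Calb1 at 80.9 and 78.1 CPM and Sox6 at 100 and 124 CPM in the male and female library. After each nucleus was thinned to 1000 UMIs, 7.75% and 7.39% of the 839 and 677 remaining nuclei had Calb1 and 25.2% and 31.8% had Aldh1a1, where without thinning 18.5% and 19.1% had Calb1 and 43.2% and 51.8% had Aldh1a1. Cluster 7, led by Col24a1 and Pcsk6, had more Calb1 (155 and 153 CPM) and less Aldh1a1 (54.1 and 67.7 CPM). Cluster 1, led by Ndnf and Igf1, had Sox6 at 474 and 527 CPM over all its nuclei. Clusters 3, 4 and 5 had Sox6 at 364 and 386, 621 and 639, and 731 and 764 CPM. Over both libraries clusters 1, 3, 4 and 5 held 11.2, 2.37, 4.14 and 2.37% of the members. They held 7.10, 7.40, 1.48 and 0.592% of Calb1-only and 13.6, 7.99, 6.51 and 8.88% of Aldh1a1-only nuclei. Cluster 5 was led by Hs6st3 and Lmo3. Whether nuclei of these clusters account for part of the calls was not tested.

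Levels of several genes differed between members inside and outside cluster 2. Thsd7b was at 583 and 667 CPM in the members within the cluster and at 203 and 209 CPM in those outside. Plpp4 was at 362 and 525 CPM within and 95.4 and 133 CPM outside, while Pcdh9 was at 945 and 1013 CPM within and 2430 and 2688 CPM outside. Kcnab1 was at 556 and 658 CPM within and 386 and 304 CPM outside. Col25a1 was at 275 and 320 CPM within and 477 and 704 CPM outside. Pex5l was at 322 and 364.5 CPM within and 701 and 710 CPM outside, and Kcnj6 at 516 and 418 CPM within and 738 and 773.5 CPM outside. Ebf1 differed less, at 201 and 338 CPM within and 166 and 254 CPM outside. The dopaminergic genes Th (342 and 516 CPM within, 352 and 412 CPM outside) and Ddc (938 and 818 CPM, 792 and 786 CPM) were near each other. Clusters were built from the same counts, so these values only describe the members.

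Within cluster 2 the members still lay between the other classes. Male members there had a median share of 59.8% and female members one of 58.4%, against 52.8% and 52.0% in the 31 and 18 Calb1-only and 65.6% and 63.9% in the 66 and 57 Aldh1a1-only nuclei of the overall matching that fell in that cluster, which were not matched again to its members. Outside it the medians of the members were 53.1% and 54.7%, against 46.4% and 44.4% in Calb1-only and 60.8% and 57.4% in Aldh1a1-only nuclei. Male members outside the cluster thus lay nearer to the Calb1-only median.

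When the comparison classes were drawn from cluster 2 alone, an alternative chosen after the data were seen, 3186 genes were tested. Against Calb1-only nuclei 23 genes were higher (0.722%) and 16 lower (0.502%), 28 of them also called without the restriction, 27 in the same direction. The other, Il1rapl2, was lower by call without the restriction (-0.32, adjusted p = 0.038) and higher by call within the cluster (1.29, SE 0.19, adjusted p = 3.7e-07). Ebf1 (log2 fold change 1.19) and Lrrtm4 (1.65) remained higher and Necab1 (-1.19), Pcdh9 (-0.695) and Pcdh7 (-0.725) remained lower. Cdh8, Lmo3, Lmx1a and Unc5d were not called against Calb1-only nuclei within the cluster. Of the named genes that could be compared there, 9 were called again, 18 kept only their direction and 2 reversed. Against Aldh1a1-only nuclei 6 genes were higher (0.188%) and 1 lower (0.0314%). Pcdh7 (1.00, SE 0.21), Sgcd (0.55, SE 0.13) and Il1rapl1 (0.68, SE 0.17) were higher and Cadm2 (-0.47, SE 0.11) lower, as without the restriction, and Unc5d and the acid-sensing channel gene Asic2 were added. Pcdh9, Col25a1, Pex5l and Kcnj6 were not called against Aldh1a1-only nuclei within the cluster. Besides Il1rapl2, Kcnip4 against Calb1-only nuclei, Lix1 against Aldh1a1-only nuclei and Kcnab1 and Ptprz1 against the midpoint, all called without the restriction, were at 0 or on its other side within the cluster, and these 4 were not called there. From the midpoint 2 genes were higher (0.0628%), Il1rapl2 and Lrrtm4, and 0 lower (0%). Cluster 2 left 45 male and 35 female members. It held too few Calb1-only nuclei (82 and 64) for 2 per member, so 45 and 35 were used, beside 90 and 70 Aldh1a1-only nuclei, and both the number of nuclei per member and the number of genes tested differ from the unrestricted comparison.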

How the data were processed

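Nuclei of 2 libraries were profiled by droplet single-nucleus RNA sequencing. The authors deposited UMI counts per gene and nucleus, unnormalized, made with Cell Ranger 6.0.0 against mm10 with intronic reads counted. The submitters' processing notes also name Seurat 4.0.2. Nuclei under 500 detected features were dropped, and classes were summed per library after taking the 2 nearest nuclei in log2 UMI total per member without reuse. The 6 sums were fitted with edgeR 4.0.16 (quasi-likelihood test, TMM scaling, filterByExpr, Benjamini-Hochberg adjustment over the tested genes, residual degrees of freedom 2). The library was a block because sums of the same number come from the same library. With this block the remaining spread is that of the class differences between these 2 libraries only. The members and both classes share each library. Nuclei were clustered as in the study's methods with the 5 genes of the choice left out. Doublets were not removed: Scrublet called too few nuclei to be relied on, so the highest 6% of scores per library were left out in an alternative. Gene positions are from GENCODE M21. Named genes were the 10 with the largest change per direction past the threshold, with the same direction in both libraries and at least 20 CPM on the higher side, every called gene of the fixed lists, the genes of the choice and Th, Slc6a3, Ddc, Slc18a2, Slc17a6 and Aldh1a7. Nr4a2, En1, Pitx3, Lmx1b, Calb2, Lpl, Kcns3 and the genes named within cluster 2 beyond this rule were chosen after their values were seen. The members and lists were chosen with earlier results of these data known. DESeq2 1.42.0, other scalings, filters, matchings and choices of members were alternatives, and the fits within cluster 2 and without oligodendrocyte transcripts were added after the data were seen. Depth per class and library is given with the results, and all intervals cover counting error only. Results for some genes are not reported here.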

Additional observations from a re-analysis of the deposited data

How the results depend on the processing

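The count of 122 genes called against Calb1-only nuclei became 27 with DESeq2, 22 with no replicate block, 76 with 1 comparison nucleus per member and 39 within cluster 2, where Calb1-only nuclei also numbered 1 per member. The 29 called against Aldh1a1-only nuclei became 4 with DESeq2, 0 with no replicate block, 68 with no depth matching, 12 without the highest doublet scores, 7 with at least 2 Aldh1a1 UMIs, 7 within cluster 2 and 48 without oligodendrocyte transcripts. The 20 called against the midpoint became 0 with DESeq2, 32 with no low count filter, 0 with no replicate block, 36 with Anxa1 and Otx2 at 0 in the comparison classes, 36 with at least 1000 features, 2 with at least 2 Aldh1a1 UMIs, 2 within cluster 2 and 32 without oligodendrocyte transcripts. With no low count filter 12 genes were higher and 20 lower against the midpoint, 11 and 20 against Aldh1a1-only and 48 and 83 against Calb1-only nuclei, so that the first 2 splits turned. With DESeq2 the split against Aldh1a1-only nuclei turned to 1 and 3. The 237 called between the single-gene classes became 71 with DESeq2, 77 with no replicate block, 140 with only these classes fitted, 123 with 1 nucleus per member, 603 with no depth matching and 109 within cluster 2. With no replicate block the library difference enters the spread; the cause of the other changes was not tested. Requiring 2 Aldh1a1 UMIs left 71 of 169 members. Cluster resolution 0.8 put 37.9% of all 169 members in the leading cluster, and leaving out each library gave 45.5 to 50%. Reversals touched mainly the uncalled dopaminergic genes. Against Calb1-only nuclei Slc6a3 turned to 0.018 with 1 nucleus per member, 0.063 with no depth matching, 0.043 with 2 Aldh1a1 UMIs and 0.155 within cluster 2, and Slc18a2 to 0.092 with 1 nucleus per member and 0.187 with 2 Aldh1a1 UMIs. Against Aldh1a1-only nuclei Slc18a2 turned to 0.017 with 2 Aldh1a1 UMIs and 0.007 without oligodendrocyte transcripts, Th to 0.052 with 1 nucleus per member and 0.011 without oligodendrocyte transcripts, and within cluster 2 Slc6a3 to 0.0 and Ddc to 0.004. Against the midpoint Slc18a2 turned to 0.039 and Th to 0.018 with 1 nucleus per member, Slc18a2 to 0.102 with 2 Aldh1a1 UMIs and Slc6a3 to 0.078 within cluster 2. Of the called genes named in the text, Kcnip4 (0.255) and Il1rapl2 (1.29, called on either side) against Calb1-only, Lix1 (0.216) against Aldh1a1-only and Kcnab1 (-0.0) and Ptprz1 (0.03) against the midpoint reversed within cluster 2. With a single library left no test of the calls was possible, and the depth of 2 libraries limits every call.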
